A study of Rattus norvegicus with 8 samples.

Results

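The genes described here are the GDNF receptor pair Gfra1 and Ret and 5 transcription factor genes of stem spermatogonia, Bcl6b, Lhx1, Zbtb16, Pou3f1 and Sall4. They were chosen by name, with earlier results of these data known, and 6 of the 7 were found among the 16764 gene symbols of the count table. Sall4 is not analysed here. Glial cell line-derived neurotrophic factor (GDNF) is secreted by Sertoli cells and other somatic cells of the testis and binds GFRA1, a membrane-anchored coreceptor without a kinase of its own. The bound coreceptor engages RET, a receptor tyrosine kinase that signals through SRC-family kinases, PI3K-AKT and RAS-MAPK, and this signal maintains stem spermatogonia in rodents. Bcl6b, Lhx1 and Pou3f1 respond to GDNF in cultured rodent spermatogonia, whereas Zbtb16 (PLZF) is a repressor needed to keep the stem cell pool in mice.

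RNA was sequenced from 3 groups of Brown Norway rat germ cells, with 2 libraries in each. Undifferentiated spermatogonia (USg) were a spermatogonial stem cell line kept in SG medium, with 0 h in SD medium, and their titles read T120plusG, where those of DSg read T120plusRAplusN. Differentiating spermatogonia (DSg) were the same line 7 days after plating on laminin, of which 120 h were in SD medium, with neuregulin-1 and all-trans-retinoic acid added. The spermatocyte-enriched group (Spc) was not a line but primary testis germ cells left over when plastic, collagen-I and laminin had bound other cells, kept 2.5 days in medium with 10% serum. USg and DSg therefore came from 1 line but differed in medium, plating and added factors as well as in stage. Spc differed from both in source, selection and medium as well as in stage. Within each comparison these differences cannot be told apart. By the labels, USg RNA was taken at day 0, before plating. The titles of USg and DSg both carry T120, so that it is unsettled whether these groups were matched in time. The series has another 2 samples, in which Foxa2 was immunoprecipitated from chromatin, and they are not analysed here.

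The libraries held between 2657291 and 5697165 counts. Levels are given as CPM, the counts per 1000000 of a library's total after TMM scaling, and were compared within a gene and not between genes, since transcript lengths were not used. Ribosomal RNA genes took 12.4% of the counts of DSg library 1 and 7.81% of USg library 1, and 0.734% or less of the other 4. These shares add Rn45s and Rn18s, whose counts were nearly equal in each library (165091 and 164874 in DSg library 1). Whether the same reads were counted for both was not tested, and the shares would then be too high. DSg library 2 stood apart in another way, with a count for 96.7% of 1045 olfactory receptor genes, against 23.3% to 64.1% in the other 5 libraries. The 95th percentile of these receptor genes, 2.66 CPM in DSg library 2 and 0.355 to 1.16 CPM in the others, gives a scale for the lowest levels below. Of 4 tested markers of differentiating spermatogonia, Kit alone was called between DSg and USg, higher in DSg, where 0.565% of all genes were called higher. Sohlh2 and Dnmt3b were higher in DSg without passing, and Sohlh1 had 43.1 and 147 CPM in USg and 54.1 and 78.5 CPM in DSg. The Spc label was checked with Sycp3, a gene of the synaptonemal complex, which had 241 and 298 CPM in USg, 206 and 135 CPM in DSg and 3147 and 3501 CPM in Spc. Sycp3 does not tell the USg and DSg labels apart. In Spc the summed markers of several somatic cell types were also high. All 11 Sertoli cell markers were in the table, and their summed level was 400 and 458 CPM in USg, 246 and 211 CPM in DSg and 1272 and 1007 CPM in Spc. Of these sums Clu alone gave 291 and 381 CPM in USg, 218 and 166 CPM in DSg and 1009 and 785 CPM in Spc. Of 8 Sertoli markers tested, 4 were called higher and 0 lower in Spc than in USg, against 17.9% and 16.6% of all genes. Sox9 was not called, with 56.3 ± 36.4 CPM in USg and 47.6 ± 3.67 CPM in Spc (SD, n = 2 each). Krt18, which was not tested, had 1.93 and 2.13 CPM in USg and 0.59 and 0.217 CPM in Spc. The sum of 5 peritubular myoid markers was 42.0 and 58.5 CPM in USg, 46.0 and 51.9 CPM in DSg and 461 and 489 CPM in Spc. Of 6 fibroblast markers 5 were in the table, summing to 485 and 208 CPM in USg, 272 and 194 CPM in DSg and 2418 and 2261 CPM in Spc. Of 4 fibroblast markers tested, 3 were called higher and 0 lower in Spc than in USg, against 17.9% and 16.6% of all genes. Col1a1 had 311 and 115 CPM in USg and 142 and 172 CPM in Spc. Of 5 Leydig cell markers Star alone was high in Spc, at 158 and 169 CPM, whereas Cyp11a1 had 1.93 and 2.67 CPM in USg, 6.05 and 5.85 CPM in DSg and 0.787 and 1.09 CPM in Spc, and Insl3 was at 0 in Spc library 2. The sum of 4 endothelial markers went the other way, with 172 and 103 CPM in USg, 46.4 and 59.3 CPM in DSg and 26.0 and 32.1 CPM in Spc. Of these 4, edgeR called 2 lower and 1 higher in Spc than in USg, against 16.6% and 17.9% of all genes. Cdh5 had 0 and 1.07 CPM in USg and 5.51 and 6.73 CPM in Spc. The part of these cells in the differences between Spc and the spermatogonia was not tested, and fewer cells expressing a gene cannot be told apart from less RNA per cell.

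Promoter sequence from RefSeq (assembly GRCr8) was used for Gfra1, Ret and Lhx1, and those of Bcl6b, Zbtb16 and Pou3f1 are not analysed here. Those of Ret and Lhx1 are shown, as the kinase subunit of the receptor and the transcription factor with the largest fitted decrease among the 6 genes in DSg. Each run is the 250 bases before the annotated start on the minus strand, from chr4:153040557-153040806 for Ret and chr10:69901077-69901326 for Lhx1, with capitals at each GC box (GGGCGG on either strand).
Ret: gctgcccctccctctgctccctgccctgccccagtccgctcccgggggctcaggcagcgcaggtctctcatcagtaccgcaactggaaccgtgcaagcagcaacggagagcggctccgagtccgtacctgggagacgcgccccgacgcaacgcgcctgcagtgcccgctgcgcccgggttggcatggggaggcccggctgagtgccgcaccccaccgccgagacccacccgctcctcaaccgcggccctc
Lhx1: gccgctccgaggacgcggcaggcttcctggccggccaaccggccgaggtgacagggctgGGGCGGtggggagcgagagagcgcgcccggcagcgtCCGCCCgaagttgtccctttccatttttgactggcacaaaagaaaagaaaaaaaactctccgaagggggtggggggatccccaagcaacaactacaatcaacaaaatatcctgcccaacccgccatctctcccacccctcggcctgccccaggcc
The Lhx1 window held 2 GC boxes, at 191 and 155 bases before the start, and the Ret window held none. A GC box was present in 30.5% of 33469 rat promoter windows of this length. The G and C content was 72.8% for Ret and 63.2% for Lhx1, against a median of 51.2% over all windows. The window of Gfra1 lies inside the gene's annotated span, begins from a downstream start and is not printed. It had 62% G and C and 1 GC box, at 59 bases. Searched on both strands, the 3 windows held no Foxa motif (TGTTTAC, in 3.215% of all windows), ETS core (CCGGAAG, 7.27%), E-box (CACGTG, 5.59%) or direct repeat bound by retinoic acid receptors (AGGTCA repeated after 5 bases, 0.00896%). A match or its lack describes these letters in these windows only.

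In DSg, RNA of 4 of the 6 genes fell relative to USg (Gfra1, Ret, Bcl6b and Lhx1), and the levels of the other two, Zbtb16 and Pou3f1, were lower without passing the test. Over all 12210 genes tested with edgeR's quasi-likelihood F-test, 2.48% were called at an adjusted p under 0.05, and 1.92% were called lower in DSg. None of the 6 was called higher, at an unadjusted p under 0.05 either, and DESeq2 and limma-voom called 0 higher and 5 and 4 lower. Over all genes, 1335 were lower and 1009 higher in DSg at an unadjusted p under 0.05. DESeq2 called 542 lower and 239 higher over all genes, and limma-voom 220 lower and 67 higher. These counts are also the background for the DSg counts of the lists below. The median log2 fold change of the 6 genes was -2.78, against 0.01 over all genes. In Spc all 6 fell relative to USg, where 34.5% of genes were called and 16.6% were called lower. Their median log2 fold change was -4.74, against -0.04 over all genes. Between Spc and DSg, 5 of the 6 were lower in Spc, where 26.5% of genes were called and 11.7% were called lower. The split over all genes there was 1433 lower and 1806 higher, against 1925 lower and 1486 higher with upper quartile scaling and 1681 lower and 1407 higher with total count scaling. The comparisons share libraries, so their fold changes are not independent of each other.

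The calls between DSg and USg rest on both DSg libraries. Without DSg library 1, and likewise without DSg library 2, edgeR called 0 genes of the whole table at the adjusted threshold, and limma-voom called 0. At an unadjusted p under 0.05, 3439 genes passed without DSg library 1 and 1823 without DSg library 2, of which 6 and 5 were among the genes described. DESeq2 called 546 and 303 genes, with 4 and 5 of the 6. The lone DSg library is taken in these fits to vary as the other groups do.

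**Figure D1:**
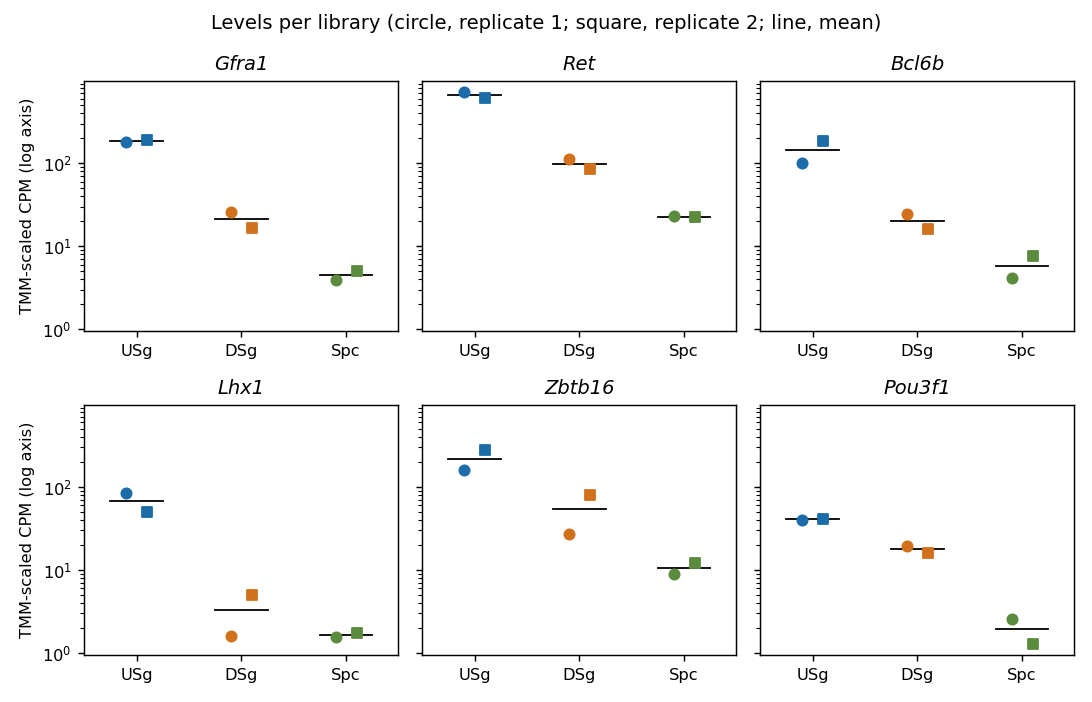
Level of each gene in each of the 6 libraries, on a log axis in CPM, with USg, DSg and Spc in stage order along the horizontal axis; points are libraries and bars are the mean of 2. In each of the 6 panels both USg libraries lie above both DSg and both Spc libraries, and the DSg libraries of Lhx1 and Zbtb16 stand far apart. Separation of 2 libraries from 2 is also seen in genes that were not called, and its share over all genes was not counted.

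Gfra1, the GDNF-binding coreceptor, had 182 and 189 CPM in the USg libraries, 26.2 and 16.8 CPM in DSg and 3.93 and 5.00 CPM in Spc. The 3 groups did not overlap, a separation that was not counted over all genes, here or below. The USg libraries were close to each other, with a difference smaller than that of all but 5.00% of genes. DSg held 21.5 ± 6.69 CPM and USg 186 ± 4.80 CPM (SD, n = 2 each), so DSg kept 11.6% of the USg level. The log2 fold change was -3.12 ± 0.36 (SE; edgeR adjusted p = 0.00697). Only 0.516% of all genes had a fold change as low or lower. In Spc the mean was 4.46 ± 0.751 CPM, or 2.40% of USg, and the log2 fold change was -5.37 ± 0.41 (edgeR adjusted p = 1.19e-04). Spc was also lower than DSg, at 20.8% of its level, with a log2 fold change of -2.26 ± 0.38 (edgeR adjusted p = 0.00364). That last call was lost without Spc library 1, with an adjusted p of 0.0596.

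Ret encodes the kinase that GFRA1 engages. It had 715 and 604 CPM in USg, 113 and 84.6 CPM in DSg and 23.0 and 22.4 CPM in Spc. The groups again did not overlap, and the order of the 3 stages was that of Gfra1. DSg averaged 99.0 ± 20.3 CPM and USg 659 ± 78.5 CPM (SD, n = 2 each). The log2 fold change was -2.73 ± 0.31 (edgeR adjusted p = 0.00697). Spc averaged 22.7 ± 0.453 CPM, or 3.44% of USg, with a log2 fold change of -4.86 ± 0.34 (edgeR adjusted p = 1.05e-04). Relative to DSg, Spc held 22.9%, a log2 fold change of -2.13 ± 0.31 (edgeR adjusted p = 0.00189), and this call held under every alternative that was run. Across the 6 libraries Ret and Gfra1 were the closest pair among the 6 genes. Their centred log2 levels differed by a root mean square of 0.24, where the widest pair, Lhx1 and Pou3f1, differed by 1.43.

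**Figure D2:**
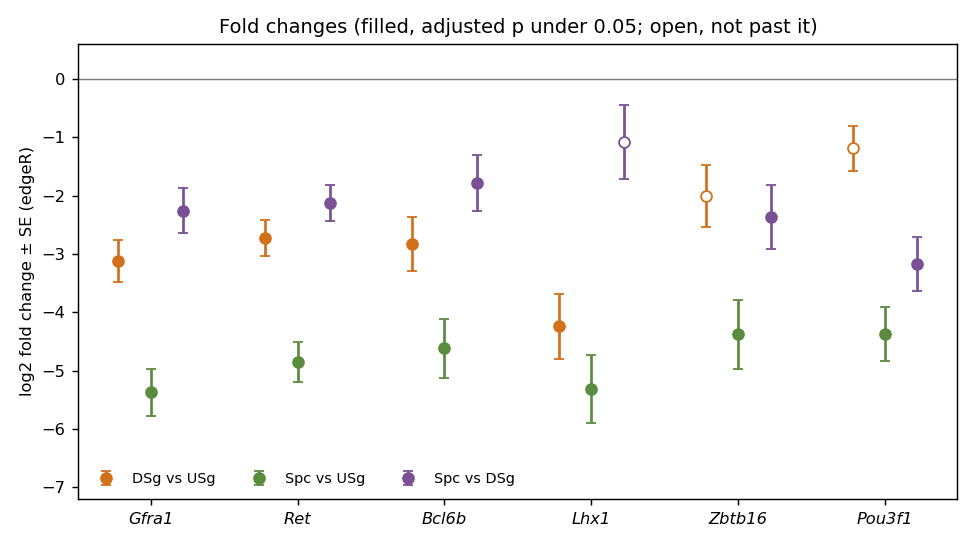
Log2 fold change of each gene in DSg against USg, Spc against USg and Spc against DSg, with bars for 1 SE of the edgeR fit of 6 libraries (2 a group) and filled points for an adjusted p under 0.05. Filled points number 4, 6 and 5 of 6, and all fold changes lie below 0.

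Bcl6b encodes a zinc finger repressor that rises with GDNF in rodent spermatogonial culture. Its level was 101 and 186 CPM in USg, 24.6 and 16.0 CPM in DSg and 4.13 and 7.60 CPM in Spc. The USg libraries differed more than for the receptors, but no group overlapped another. DSg averaged 20.3 ± 6.11 CPM and USg 144 ± 60.4 CPM (SD, n = 2 each), or 14.1% of the USg level. The log2 fold change was -2.83 ± 0.46 (edgeR adjusted p = 0.0229). In Spc it was 5.87 ± 2.45 CPM, 4.09% of USg, with a log2 fold change of -4.61 ± 0.51 (edgeR adjusted p = 3.67e-04). The Spc libraries of Bcl6b differed by more than those of 94.0% of genes. Against DSg the log2 fold change in Spc was -1.79 ± 0.48 (edgeR adjusted p = 0.0251), and the call was lost without DSg library 1 (0.155), DSg library 2 (0.0534) or Spc library 1 (0.264).

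Lhx1, a LIM homeobox transcription factor, had 84.7 and 50.1 CPM in USg, 1.61 and 5.06 CPM in DSg and 1.57 and 1.74 CPM in Spc. USg stood clear of both other groups, whereas DSg library 1 lay between the Spc libraries. The raw counts in DSg were 4 and 19, and in Spc 8 and 8, so that counting error is large there. DSg averaged 3.33 ± 2.43 CPM and USg 67.4 ± 24.5 CPM (SD, n = 2 each). This 4.95% of the USg level was the lowest of the 6 genes, with a log2 fold change of -4.24 ± 0.56 (edgeR adjusted p = 0.0111). Only 0.115% of all genes had a fold change as low. Spc averaged 1.66 ± 0.116 CPM, 2.46% of USg, with a log2 fold change of -5.32 ± 0.59 (edgeR adjusted p = 3.78e-04). The 95th percentile of olfactory receptor genes in the same library was 0.807 CPM in DSg library 1, 2.66 CPM in DSg library 2 and 0.590 and 0.869 CPM in Spc, and Lhx1 lay above it in each. Between Spc and DSg no change was called (log2 fold change -1.08 ± 0.63, edgeR adjusted p = 0.232), and without DSg library 2 the difference was 0.03.

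Pou3f1 (OCT6, a POU-domain transcription factor) had the smallest fold change of the 6 in DSg. Its level was 40.4 and 41.1 CPM in USg, 19.4 and 16.2 CPM in DSg and 2.56 and 1.30 CPM in Spc. The groups did not overlap, and the USg libraries lay close together. DSg averaged 17.8 ± 2.22 CPM and USg 40.7 ± 0.445 CPM (SD, n = 2 each), or 43.7% of USg. With a log2 fold change of -1.19 ± 0.39 this did not pass (edgeR adjusted p = 0.154), and 8.65% of all genes had a fold change as low. In Spc the gene fell to 1.93 ± 0.886 CPM, 4.74% of the USg level (log2 fold change -4.37 ± 0.46, edgeR adjusted p = 3.24e-04). Pou3f1 had the largest decrease of the 6 in Spc relative to DSg, at 10.8% of the DSg level and a log2 fold change of -3.18 ± 0.46 (edgeR adjusted p = 0.00181). The raw Spc counts were 13 and 6.

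Zbtb16 encodes PLZF, a zinc finger repressor that marks undifferentiated spermatogonia. It had 159 and 278 CPM in USg, 27.0 and 80.4 CPM in DSg and 8.85 and 12.2 CPM in Spc. The groups did not overlap, but the DSg libraries differed by 1.57 on the log2 scale, with library 2 higher, more than in 90.0% of genes. DSg averaged 53.7 ± 37.7 CPM and USg 219 ± 84.2 CPM (SD, n = 2 each), or 24.6% of USg. The log2 fold change of -2.01 ± 0.52 did not pass (edgeR adjusted p = 0.0864). Of 18 alternatives 7 passed, among them DESeq2 (adjusted p = 0.00353) and edgeR with no filter on low counts (1.31e-04). The other 11 did not pass, among them limma-voom (adjusted p = 0.0608) and edgeR on only the 4 libraries compared (0.172). The log2 fold change was -2.13 without Spc library 1, -2.10 without Spc library 2 and -2.52 without USg library 1. In Spc Zbtb16 fell to 10.5 ± 2.34 CPM, 4.81% of USg (log2 fold change -4.38 ± 0.59, edgeR adjusted p = 8.76e-04). Spc was also lower than DSg, at 19.6% of its level (log2 fold change -2.37 ± 0.55, edgeR adjusted p = 0.0140). Without DSg library 2 that difference was -1.37 (edgeR adjusted p = 0.102).

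**Figure D3:**
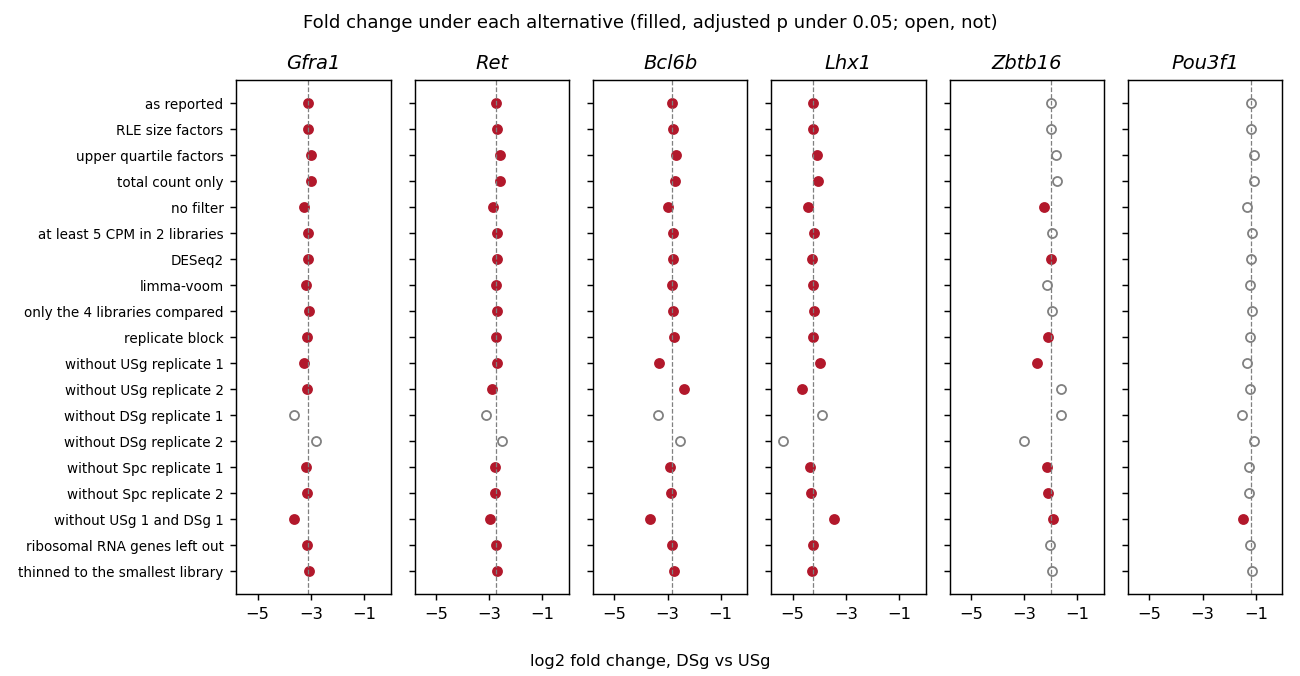
Log2 fold change of the 6 genes in DSg against USg under the main fit and 18 alternatives. Filled points have an adjusted p under 0.05. Every value lies below 0.

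The ligand and receptor family, Gfra1 and Ret included, was measured in part. Of 12 listed genes, 11 were in the table and 7 passed the filter on low counts. In DSg 3 fell relative to USg and 0 rose (edgeR), with a median log2 fold change of -2.73 over the 7; the 3 were Gfra1, Ret and Gfra2. Without Gfra1 and Ret, 1 of 5 fell and the median was -1.14. At an unadjusted p under 0.05, 5 were lower and 0 higher, and DESeq2 and limma-voom called 0 higher. Gfra2, the coreceptor of neurturin, had 9.68 and 7.72 CPM in DSg, against 114 and 119 CPM in USg (log2 fold change -3.74 ± 0.37, edgeR adjusted p = 0.00555). In Spc 5 of the 7 were lower than in USg and 0 higher, where 16.6% of all genes were called lower and 17.9% higher. Without Gfra1 and Ret 3 of 5 were lower in Spc, with a median of -2.30. Gfra2 was at 2.75 and 1.95 CPM in Spc, with a log2 fold change of -5.60 ± 0.41 against USg. Nrtn, which encodes neurturin, was uneven in USg at 4.62 and 42.7 CPM, against 3.23 and 3.73 CPM in DSg and 1.97 and 0.869 CPM in Spc. Its log2 fold change was -2.77 ± 0.92 in DSg (edgeR adjusted p = 0.161) and -4.05 ± 0.98 in Spc (0.0130), and without USg library 2 the values were -0.46 in DSg (0.909) and -1.66 in Spc (0.347). The Spc call of Nrtn was also lost with limma-voom (0.0767). Gfra3, the artemin coreceptor, averaged 1.86 ± 0.131 CPM in Spc and 9.09 ± 5.24 CPM in USg (log2 fold change -2.30 ± 0.77, edgeR adjusted p = 0.0468). That call was lost under 6 alternatives, with upper quartile and total count scaling among them. Gdnf itself was hardly counted, with 1 and 1 reads in USg, 0 and 4 in DSg and 3 and 7 in Spc, and was not tested.

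Of 33 listed adaptors and kinases downstream of RET, 31 were tested. None was called in either direction between DSg and USg by edgeR, DESeq2 or limma-voom. At an unadjusted p under 0.05 edgeR had 2 lower and 0 higher. Their median log2 fold change was -0.07, against 0.01 over all genes. In Spc 9 of the 31 fell and 4 rose relative to USg, with a median of -0.53, where 16.6% of all genes were called lower and 17.9% higher. Shc3, an SHC adaptor best known from neurons, had the lowest of these, a log2 fold change of -2.69 ± 0.42, followed by the adaptor Grb7 at -2.48 ± 0.56 and the receptor phosphatase Ptprf at -2.47 ± 0.41. The 4 that rose in Spc were the docking protein genes Gab2 (2.07 ± 0.38) and Dok5 (1.77 ± 0.50), with Mapk3, which encodes ERK1 (1.57 ± 0.42), and Grb10 (1.26 ± 0.29), both named after their values were seen. The calls of Grb7, Dok5, Mapk3 and Grb10 were lost without Spc library 2, those of Dok5 and Grb10 also without Spc library 1, and that of Mapk3 also without USg library 2.

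Genes reported to respond to GDNF in cultured rodent spermatogonia numbered 14, of which 13 were tested and 3 are described above. In DSg 6 of the 13 fell relative to USg and 0 rose (edgeR), with a median log2 fold change of -2.38, and without the 3 genes 4 of 10 fell. The 10 lower at an unadjusted p under 0.05, with 0 higher, compare with 8 by DESeq2 and 5 by limma-voom, again with 0 higher. Etv5, an ETS factor needed for stem cell maintenance in mice, averaged 96.3 ± 10.5 CPM in DSg and 502 ± 169 CPM in USg (log2 fold change -2.38 ± 0.34, edgeR adjusted p = 0.0140). Egr3, an immediate early gene, averaged 3.74 ± 1.86 CPM in DSg and 52.0 ± 32.1 CPM in USg (-3.74 ± 0.58, edgeR adjusted p = 0.0191), and T (brachyury) 3.67 ± 1.20 CPM in DSg and 35.8 ± 8.69 CPM in USg (-3.23 ± 0.48, 0.0156). The Egr3 call was lost under 3 of 18 alternatives, and those of Etv5 and T under 2. Mycn, a MYC-family gene, averaged 6.09 ± 0.0485 CPM in DSg and 39.2 ± 2.62 CPM in USg (-2.67 ± 0.49, edgeR adjusted p = 0.0305), a call lost under total count scaling (0.0589). Nanos2, an RNA-binding repressor of male germ stem cells, had 0.403 and 3.99 CPM in DSg, against 18.5 and 23.3 CPM in USg, which did not pass (-3.12 ± 0.77, edgeR adjusted p = 0.0739). In Spc 7 of the 13 were lower than in USg and 3 were higher, with a median log2 fold change of -2.91. Over all genes 16.6% were called lower in Spc than in USg and 17.9% higher. Without the 3 genes described above, 4 of 10 were lower and 3 higher in Spc, with a median of -0.93. Etv5 fell to 22.9 ± 1.32 CPM in Spc (log2 fold change -4.45 ± 0.37), Nanos2 changed by -4.46 ± 0.83 and T by -3.37 ± 0.47, while the immediate early genes Fos (3.22 ± 0.54) and Egr2 (3.15 ± 0.62) were higher in Spc. The Spc reads of Nanos2 numbered 6 and 3.

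Other genes of undifferentiated spermatogonia were listed 28 strong, with 20 tested. In DSg 4 fell relative to USg and 0 rose (edgeR), with a median log2 fold change of -1.31. At an unadjusted p under 0.05, 13 were lower and 0 higher, against 1335 lower and 1009 higher of all 12210 genes. DESeq2 called 9 lower and 0 higher, against 542 and 239 over all genes. With limma-voom 3 were lower and 0 higher, against 220 and 67. The 4 that edgeR called were Etv5 and T, which both lists hold, Upp1, a uridine phosphorylase gene, and the tetraspanin gene Cd9. Upp1 averaged 5.02 ± 0.322 CPM in DSg and 27.1 ± 9.11 CPM in USg (log2 fold change -2.41 ± 0.43, edgeR adjusted p = 0.0298), and Cd9 61.5 ± 33.9 CPM in DSg and 273 ± 6.12 CPM in USg (-2.15 ± 0.41, 0.0374). When only the 4 spermatogonial libraries were fitted, Upp1 had an adjusted p of 0.100 and Cd9 of 0.0814. Id4, whose product marks mouse stem spermatogonia, averaged 16.4 ± 4.76 CPM in DSg and 48.1 ± 1.15 CPM in USg, just short of the threshold (log2 fold change -1.56 ± 0.35, edgeR adjusted p = 0.0556). In Spc 14 of the 20 fell and 1 rose relative to USg, where 16.6% of all genes were called lower and 17.9% higher. Lin28a, an RNA-binding protein gene, changed by -4.67 ± 0.46 on the log2 scale and Utf1, a chromatin factor gene, by -4.48 ± 0.76. Their Spc reads numbered 5 and 5 for Lin28a and 9 and 2 for Utf1. The 1 that rose in Spc was Id4, at 128 ± 15.7 CPM (log2 fold change 1.42 ± 0.33, edgeR adjusted p = 0.0111), a call lost without either Spc library (0.163 without library 1, 0.0687 without library 2).

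Partners and reported targets of ZBTB16 and SALL4 numbered 16, with 15 tested. Between DSg and USg edgeR called 0 lower and 1 higher, with 4 lower and 1 higher at an unadjusted p under 0.05, and DESeq2 and limma-voom also called 0 lower and 1 higher. The 1 was Kit, the stem cell factor receptor that ZBTB16 represses in mouse spermatogonia and that appears on differentiating cells. Kit averaged 575 ± 28.9 CPM in DSg and 74.5 ± 16.1 CPM in USg, a log2 fold change of 2.96 ± 0.31 (edgeR adjusted p = 0.00556). In Spc it averaged 74.1 ± 0.817 CPM, near its USg level. Spc had 7 of the 15 lower than USg and 0 higher by edgeR, where 16.6% of all genes were called lower and 17.9% higher. By DESeq2, by limma-voom and at an unadjusted p under 0.05, 1 of the 15 was higher in Spc. Among those that fell in Spc were Sall1, a relative of Sall4 (log2 fold change -3.92 ± 0.57), the spermatogonial transcription factor gene Sohlh1 (-3.13 ± 0.57) and Foxo1, a forkhead factor of PI3K-AKT signalling (-2.51 ± 0.29).

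Paralogs of the 6 genes and of Sall4 numbered 19, of which 13 were tested. Relative to USg 3 fell and 0 rose in DSg (edgeR), with a median log2 fold change of -0.74; at an unadjusted p under 0.05, 4 were lower and 1 higher, and DESeq2 and limma-voom called 3 and 2 lower and 0 higher. Beside Gfra2 these were the LIM homeobox genes Lhx2 and Lhx8. Lhx2 averaged 12.3 ± 3.12 CPM in DSg and 48.8 ± 9.42 CPM in USg (log2 fold change -1.98 ± 0.39, edgeR adjusted p = 0.0399), and Lhx8 4.08 ± 0.504 CPM in DSg and 24.9 ± 6.76 CPM in USg (-2.59 ± 0.54, 0.0466). Of 18 alternatives, 5 lost the Lhx2 call and 7 the Lhx8 call. Under upper quartile scaling the edgeR adjusted p was 0.0507 for Lhx2 and 0.0645 for Lhx8. In Spc 5 of the 13 fell and 1 rose relative to USg, where 34.5% of all genes were called and 16.6% were called lower. Lhx8 was at -5.79 ± 0.68 and Lhx2 at -5.67 ± 0.49. The Spc reads numbered 1 and 3 for Lhx8 and 5 and 4 for Lhx2, so the size of these falls is uncertain. At 0.197 and 0.652 CPM in Spc, Lhx8 lay below the 95th percentile of olfactory receptor genes of each library (0.590 and 0.869 CPM). The 1 that rose was Zbtb32, a zinc finger relative of Zbtb16, with 64.8 ± 3.78 CPM in Spc and 12.7 ± 4.90 CPM in USg (log2 fold change 2.32 ± 0.64, edgeR adjusted p = 0.0223).

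Over all tested genes, the profiles nearest to each of the 6 were found by the root mean square difference of centred log2 CPM across the 6 libraries. For Gfra1 these were Fgfr3 (0.18), Cryga (0.20) and Snap91 (0.23). For Ret they were Snap91 (0.17), Gfra1 (0.24) and Prkcq (0.24), and for Bcl6b Etv5 (0.34), Lypd1 (0.35) and Mest (0.37). Lhx1 had no gene as near, with Frzb at 0.41, Kcnc2 at 0.46 and Asb13 at 0.47. Zbtb16 was nearest to Treml1 (0.26), Csf3r (0.32) and Foxi3 (0.33), and Pou3f1 to Pacsin1 (0.20), Ica1 (0.23) and Kcng3 (0.24). These libraries are 2 in each of 3 groups, so genes with the same group means and the same replicate differences come out near.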

How the data were processed

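RNA was sequenced in 6 libraries, 2 in each group. The authors deposited raw read counts per gene symbol, judged from the values, which are whole and sum to another total in every library. Per the submitters' processing notes the tools included the aligners Bowtie2 2.2.3 and STAR 2.5.3a, Subread 1.4.6 with featureCounts, HOMER, Picard 1.127 and edgeR 3.2.4, with builds rn5 and rn6, and no role is given for each. Which aligner, build, annotation and strand setting made the counts is not given in the sources used here, so that overlapping and antisense genes may share reads.

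Of 16764 symbols 12210 passed filterByExpr (minimum count 10, minimum total count 15), 4554 did not, and all 6 genes described passed. Counts were fitted with TMM factors and tested two-sided by edgeR 4.0.16 under R 4.3.3, with its quasi-likelihood F-test, in 1 fit of 6 libraries with 3 residual degrees of freedom. P-values were adjusted over all genes tested (Benjamini-Hochberg, threshold 0.05). Standard errors were derived from the fold change and its F statistic. CPM are counts over the total count times the TMM factor. Scripts were tested on simulated data.

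The genes and lists were chosen with earlier results of these data known. From each list the text names the largest called changes among genes of at least 5 CPM in a group (4 for DSg against USg, 3 for Spc against USg, and up to 2 in the rarer direction), and Gdnf, Etv5, Kit, Id4 and Nanos2 whatever their result. Nrtn in DSg was named after its values were seen. Some listed genes were not matched and are not analysed here. Promoters were read from RefSeq (GRCr8).

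Replicates differed by more than sampling noise (chi-square per degree of freedom 82.8 in USg, 47.7 in DSg and 13.3 in Spc). The labels speak of replicate cultures for the line and do not say whether these, or the Spc preparations, came from separate animals, so that p-values measure only the spread between these libraries. Alternatives were 18 for each comparison: other scaling factors, filters, DESeq2 1.42.0, limma-voom (limma 3.58.1), the compared libraries only, a replicate block, thinning, leaving out ribosomal RNA genes or libraries rich in them, and leaving out each library.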

Additional observations from a re-analysis of the deposited data

How the results depend on the processing

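Of the 18 fold changes of the 6 genes, each recomputed under 18 alternatives (17 for Lhx1 in Spc against DSg, which did not pass the filter in a fit of only those 4 libraries), 300 values kept direction and side of the threshold, 13 lost the call, 9 gained it and 1 changed sign. That was Lhx1 in Spc against DSg, whose log2 fold change ran between -1.43 and 0.03 when 1 library at a time was left out, with 0.030 without DSg library 2 (the cause was not tested). For other named genes 595 values kept both, 51 lost the call, 18 gained it and 0 changed sign. Between DSg and USg the 303 calls became 199 with total count scaling, 1044 with no filter, 781 with DESeq2 and 90 when only the 4 libraries compared were fitted. With both libraries richest in ribosomal RNA left out, which leaves USg and DSg with 1 library each and takes the spread from the 2 Spc libraries alone, the calls numbered 6327 for DSg against USg, 8246 for Spc against USg and 8292 for Spc against DSg, and 6 of the 6 genes in DSg against USg. Leaving out 1 library at a time gave 0 to 1501 calls for DSg against USg, with 0 to 5 of the 6 genes. It gave 2258 to 4411 calls for Spc against USg and 1642 to 4289 for Spc against DSg, with 3 to 5 of the 6 genes in Spc against DSg. The labels do not say that replicate numbers pair the libraries, although library 1 was the one richer in ribosomal RNA in both USg and DSg, and replicate differences correlated at 0.25 between USg and DSg, -0.27 between USg and Spc and 0.01 between DSg and Spc. With a replicate block the calls numbered 604 for DSg against USg, 4523 for Spc against USg and 3618 for Spc against DSg, with 5, 6 and 5 of the 6 genes, and the adjusted p of Zbtb16 in DSg against USg was 0.00499. Upper quartile scaling moved the median of all genes by 0.15 for DSg against USg and -0.21 for Spc against DSg on the log2 scale, and total count scaling by 0.15 and -0.18. In Spc against DSg the share of calls that were lower was 44.2% in the main result, 56.4% with upper quartile and 54.4% with total count scaling. The depth leaves Lhx1, Pou3f1, Lhx8, Nanos2, Utf1 and Gdnf, among others, with under 20 reads in several libraries.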
